A study of Vitis vinifera with 12 samples.

Results

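The comparison described here sets Flame Seedless berries at 60 days after full bloom against berries at 40 days. It spans 20 days of fruit growth and contains both shorter intervals of the sampling scheme, from 40 to 50 and from 50 to 60 days, so that slow changes can add up. Flame Seedless is a red table grape whose seeds stop growing early, which leaves only traces of them in the ripe fruit. Messenger RNA of fruit was sequenced in 12 libraries, with 3 libraries (a, b and c) per age at 40, 50, 60 and 80 days. All carried the same cultivar and tissue label, with no treatment named. The members are the gene models with at least 1 FPKM (fragments counted per kilobase of a gene model and relative to all mapped fragments) in at least 3 of the 6 libraries of 60 and 40 days, which kept 14058 of the 22580 identifiers in the table. Every test ran over these 14058 on the log2(FPKM + 1) scale, and a log2 difference is always 60 minus 40 days unless stated.

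The grape berry first grows as a hard green fruit that stores organic acids, passes through a slow phase, and then softens, colours and fills with sugar. Expression programmes of green growth, such as photosynthesis, cell division and tannin synthesis, are known to be turned down in the course of it, and those of sugar import, pigment synthesis and wall loosening to be turned up. The labels give the age of the berries but not their stage, so where 40 and 60 days lie in this sequence is not stated. The table does not pair identifiers with gene names, and 0 of 22580 matched an entry in the RefSeq gene table. No function, product or position is therefore attached to an identifier, the lists of berry pathways could not be counted, and the fruit label could not be checked against marker genes. The labels name the tissue only as fruit, and in such bulk RNA fewer cells of a type and less RNA per cell cannot be told apart.

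Transcript levels moved more often down than up over the 20 days. Of the 14058 gene models, 1918 were called, which is 13.6%: 509 rose (3.62%) and 1409 fell (10.0%), so that rises made up 26.5% of the calls. A call needed an adjusted p under 0.05 in limma and a log2 difference of at least 1, and the median standard error of a difference was 0.137. The median difference was 1.41 among the rises and -1.58 among the falls, against -0.01 over all gene models tested. The 3 libraries of 60 days did not overlap the 3 of 40 days in 1900 of the called gene models and in 61.0% of all. With the adjusted p alone, 3244 rose and 3598 fell (23.1% and 25.6%). The excess of falls thus lay in changes of at least 1 on the log2 scale. Among the smaller changes that passed the adjusted p, rises outnumbered falls. The share of rises was 37.4% under quantile normalization, a step that moved the median difference of all gene models to 0.105.

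Many of the calls were close to the minimum difference. Changes of less than 1.5 made up 911 of them, or 47.5%. At least 2 on the log2 scale was reached by 103 rises and 424 falls, at least 3 by 41 and 144, and at least 4 by 18 and 43. In only 7 rises and 14 falls was the difference 5 or more. In the plot of change against level, the called gene models lie at every level, and large falls are denser than large rises.

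**Figure D1:**
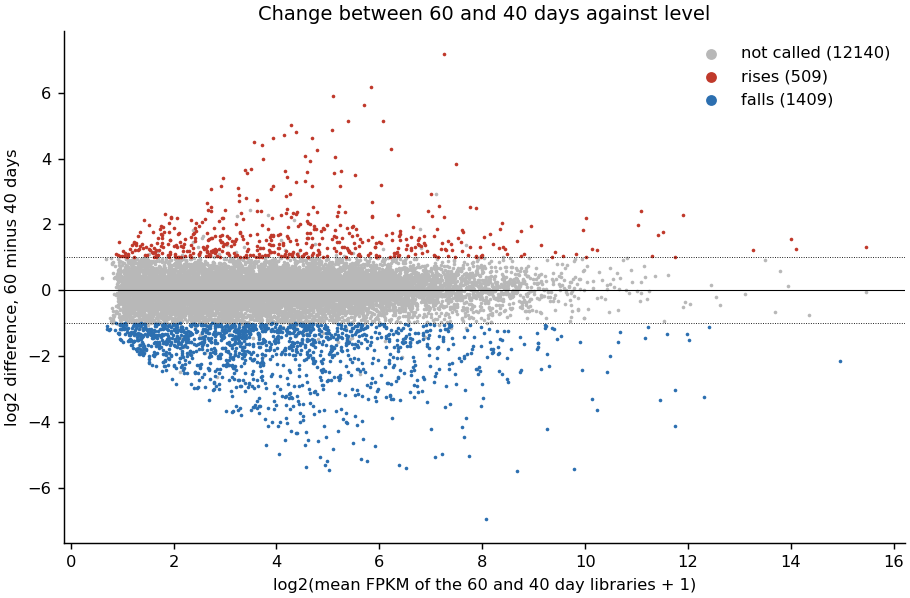
Log2 difference between 60 and 40 days (y axis) against log2 of the mean FPKM + 1 of these 6 libraries (x axis), 1 point per gene model, with red for rises, blue for falls, grey for the rest and dotted lines at a difference of 1 in either direction. The 509 rises reach 7.16 and the 1409 falls reach -6.96.

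The largest rise under the naming rule, which asked for a call, no overlap between the 2 ages and a mean of at least 10 FPKM at the higher one, was that of VIT_12s0057g01110. It stood at 331, 367 and 216 FPKM in the 60-day libraries a, b and c, against 1.85, 1.12 and 0.4996 FPKM at 40 days. Its difference was 7.16 ± 0.455 (SE; limma adjusted p = 2.77e-06). VIT_12s0057g00170 followed with 119, 106 and 109 FPKM at 60 days, against 0.278, 0.546 and 0.950 FPKM at 40 days (6.16 ± 0.476, limma adjusted p = 7.02e-06). The courses of these 2 gene models of the same identifier block differed at 50 days, where VIT_12s0057g01110 was already at 59.3 to 225 FPKM and VIT_12s0057g00170 at 2.65 to 5.88 FPKM.

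The largest fall was that of VIT_12s0059g01240, with 2.20, 1.46 and 7.06 FPKM at 60 days, against 278, 665 and 650.4 FPKM at 40 days (-6.96 ± 0.718, limma adjusted p = 3.59e-05). VIT_05s0051g00590 had 18.4, 6.41 and 35.7 FPKM at 60 days, against 582, 849.7 and 957 FPKM at 40 days (-5.49 ± 0.629, limma adjusted p = 6.85e-05). In both falls replicate c was the highest of the 60-day libraries and still far below each 40-day library. At 80 days VIT_12s0059g01240 was at 0.685 to 10.5 FPKM and VIT_05s0051g00590 at 1.96 to 14.7 FPKM, in every library far under the 40-day values.

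A switch between near absence and clear presence was rare. In 10 gene models every 60-day library was at 10 FPKM or more and every 40-day library under 1 FPKM, and in 14 the opposite held. All 24 were called, but their definition already sets no overlap and a log2 difference above the minimum of 1. Of the 10, 4 were still under 1 FPKM in every 50-day library, and 7 were at 10 FPKM or more in every 80-day library. Of the 14, 0 were under 1 FPKM in every library at 50 days and 7 were so at 80 days.

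Calls were about as frequent at low as at middle levels, and most frequent among the most abundant transcripts. By the mean of the 6 libraries, 14.5% of the gene models under 3 FPKM were called, 12.3% of those from 10 to 30 FPKM and 16.6% of those from 300 to 1000 FPKM. Of the 87 at 1000 FPKM or more, 32 were called (36.8%), with 15 rises and 17 falls. Rises made up 23.9% of the calls under 3 FPKM and 46.9% of those at 1000 FPKM or more. The mean is itself set in part by the change, so these classes are a description.

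**Figure D2:**
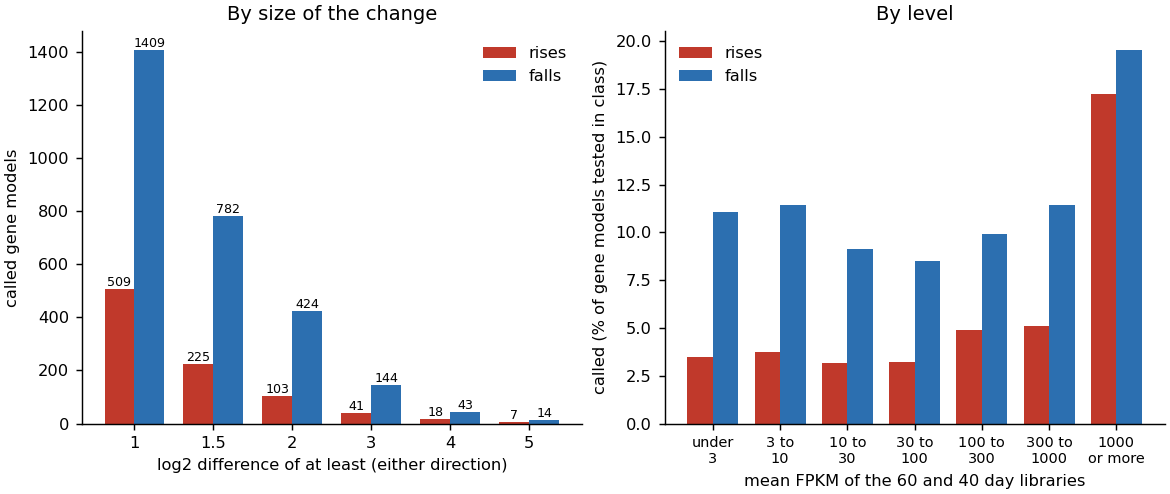
Left, the number of called gene models (y axis) whose difference reaches each log2 size (x axis), with 509 rises and 1409 falls at 1, and 7 and 14 at 5. Right, the percentage of gene models tested that rose or fell (y axis) in classes of mean FPKM over the 60 and 40 day libraries (x axis), where the class of 1000 FPKM or more has the tallest bars.

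Because abundant gene models are among the calls, the called set held a large part of the summed FPKM. The 509 rises held 20.1% ± 1.98 (SD, n = 3) of a library's summed FPKM at 60 days and 7.37% ± 0.878 at 40 days. The 1409 falls held 5.50% ± 0.879 at 60 days and 21.1% ± 1.71 at 40 days. The calls themselves chose these sets, so the shares are given without a test. The 15 abundant rises accounted for 79.4% to 82.1% of what the rises held in the 60-day libraries, and the 17 abundant falls for 54.9% to 57.3% of what the falls held in the 40-day libraries.

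Among these abundant gene models, VIT_10s0116g00570 had the largest rise. It was at 4175, 4155 and 2740 FPKM at 60 days, against 727, 575 and 734 FPKM at 40 days (2.42 ± 0.180, limma adjusted p = 6.06e-06). VIT_06s0004g04650 was at 7477, 7052 and 4331 FPKM at 60 days, against 1684, 1589 and 740.5 FPKM at 40 days (2.28 ± 0.312, limma adjusted p = 0.000193). Both were lowest in replicate c among the 60-day libraries, and both stood higher still at 80 days, at 7843 to 9958 FPKM and 16165 to 22808 FPKM. The largest fall in the class was that of VIT_00s0187g00160, with 533, 159.6 and 553 FPKM at 60 days, against 6346, 8097 and 4907 FPKM at 40 days (-4.12 ± 0.445, limma adjusted p = 4.62e-05). VIT_13s0067g02930 had 181, 113 and 262 FPKM at 60 days, against 1936, 2172 and 2552 FPKM at 40 days (-3.65 ± 0.389, limma adjusted p = 4.28e-05). These 2 differed in when they fell: at 50 days VIT_00s0187g00160 was at 1176 to 1802 FPKM, far under each 40-day library, while VIT_13s0067g02930 was at 844 to 1807 FPKM, much nearer to its 40-day values but still under each of them.

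The wide interval also drew in changes that neither shorter interval called. In the same fit 1156 gene models were called from 40 to 50 days (8.22%) and 531 from 50 to 60 days (3.78%). These contrasts share libraries with the 60 against 40 day contrast, and no test was made between them. Of the 1918 calls, 701 (36.5%) were called in neither shorter interval: 226 of the 509 rises (44.4%) and 475 of the 1409 falls (33.7%). In 635 of them, 201 rises and 434 falls, both intervals had moved by less than 1, the minimum difference for a call. In the other 25 rises and 41 falls an interval had moved by 1 or more without passing the adjusted p, and their standard errors were large, with medians of 0.510 and 0.504 against 0.182 and 0.195 in the 201 and 434. Being called in neither interval is not the same as being undetected there: an adjusted p of 0.05 or more in both intervals was found in only 66 of the 226 rises and 140 of the 475 falls. The adjusted p was under 0.05 from 40 to 50 days in 137 rises and 269 falls, and from 50 to 60 days in 83 rises and 167 falls, with a step of less than 1 in each case.

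The selection itself sets the size and the course of these changes. Where both steps are under 1 and their sum is at least 1, the sum cannot reach 2, both steps have the same sign and the 50-day mean lies between the other ages. Their values are therefore a description and not a trait of the group. In this group the median difference was 1.15 in rises and 1.22 in falls, in absolute terms. Over all 226 rises and 475 falls called in neither interval the median difference was 1.17 and 1.24. Of these, 7 rises and 20 falls reached 2 or more. The median step of these rises was 0.66 in the first interval and 0.56 in the second, and that of the falls -0.73 and -0.60. All calls were chosen by the sum of both steps, though not by the size of each step. Over all calls the medians were 0.84 and 0.57 for rises and -1.07 and -0.58 for falls.

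Examples are given from the gene models with both steps under 1, a group that was set apart after the values had been seen. VIT_09s0002g07130 was at 11.3, 13.5 and 9.11 FPKM at 60 days, against 2.49, 2.30 and 2.01 FPKM at 40 days (1.90 ± 0.188, limma adjusted p = 2.98e-05), with steps of 0.94 and 0.97. VIT_03s0180g00210 was at 15.8, 15.7 and 11.3 FPKM at 60 days, against 3.95, 2.95 and 3.33 FPKM at 40 days (1.78 ± 0.306, limma adjusted p = 0.000802). The 50-day libraries of both, at 4.01 to 7.47 FPKM and 5.37 to 10.4 FPKM, lay between the 2 ages without touching either.

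VIT_13s0067g01980 fell, to 92.8, 84.1 and 77.4 FPKM at 60 days, against 269.9, 306 and 418 FPKM at 40 days (-1.93 ± 0.196, limma adjusted p = 3.38e-05), with steps of -0.96 and -0.97. VIT_18s0001g08250 had 123, 108 and 168 FPKM at 60 days, against 524, 431 and 545 FPKM at 40 days (-1.92 ± 0.218, limma adjusted p = 6.45e-05). Its 50-day libraries held 245 to 263 FPKM, a narrow band between the ages.

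The 2 largest rises and 2 largest falls called in neither interval under the naming rule were of another kind. In all 4, each step was larger than 1 but did not pass the adjusted p, and 3 of them had uneven libraries. VIT_16s0039g00270 was at 24.0, 22.2 and 18.7 FPKM at 60 days and listed at 0 in all 3 libraries of 40 days, but also listed at 0 in replicate b at 50 days and replicate a at 80 days. VIT_12s0055g00800 had 2.25, 20.6 and 120.3 FPKM at 60 days, against 0.140, 1.17 and 0 FPKM at 40 days (3.92 ± 1.42, limma adjusted p = 0.0398). Its call was lost without replicate b or c of 60 days and without any of the 40-day libraries, with differences from 2.63 to 4.26.

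Among the falls, VIT_06s0004g05380 had 1.07, 0.403 and 0.647 FPKM at 60 days, against 32.99, 14.7 and 20.2 FPKM at 40 days (-3.74 ± 0.718, limma adjusted p = 0.00158), and its 50-day libraries, at 4.17 to 5.50 FPKM, lay between. VIT_00s2342g00020 had 5.44, 0 and 16.9 FPKM at 60 days, against 48.5, 68.0 and 68.98 FPKM at 40 days (-3.67 ± 1.04, limma adjusted p = 0.0135). Without replicate b of 60 days, which is listed at 0, its difference was -2.53 and it was no longer called.

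**Figure D3:**
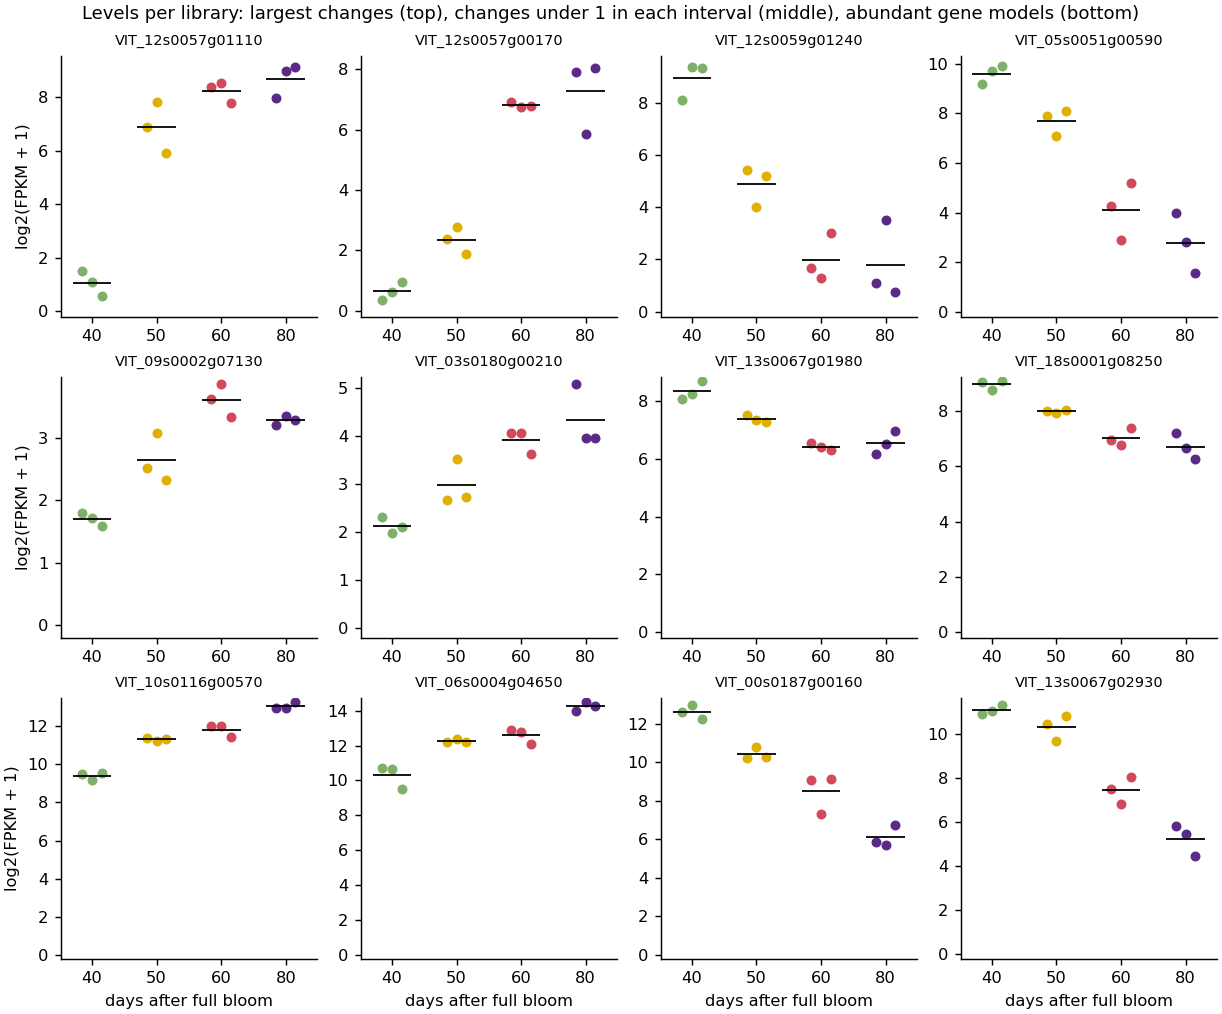
Levels as log2(FPKM + 1) (y axis) in each library by age (x axis, days after full bloom) for 12 gene models, with points for libraries and bars for means of the log2 values. The top row shows the 2 largest rises and falls, the middle row changes made in 2 steps of under 1, where the 50-day libraries lie between the ages, and the bottom row the largest changes among gene models at 1000 FPKM or more.

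The libraries of 50 and 80 days had no part in the 60 minus 40 day difference and show the course of the called gene models. Their spread did enter the standard errors behind the calls, since all 12 libraries were fitted together. At 50 days the mean level lay between those of 40 and 60 days in 82.9% of the rises and 88.3% of the falls, against 51.9% of all gene models tested. The further apart 2 ages are, the more readily a level lies between them, so this contrast is a description. The median rise had covered 59.7% ± 11.4 (SD over the 3 libraries of 50 days) of its log2 change by 50 days, and the median fall 65.4% ± 8.61. Replicate b of 50 days was the most advanced in both directions, at 71.1% for rises and 74.5% for falls.

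At 80 days the mean was beyond that of 60 days, seen from 40 days, in 64.6% of the rises and 71.5% of the falls, against 61.1% of all gene models tested. The share of the rises was close to that of all gene models tested, and the differences between these shares were not tested. Only 15 rises (2.95%) and 11 falls (0.781%) had passed back over the 40-day mean, against 14.5% of all gene models tested, whose distance from that mean was mostly smaller. The median rise stood at 114% ± 2.52 of its 60-day change at 80 days and the median fall at 116% ± 5.45 (SD, n = 3).

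**Figure D4:**
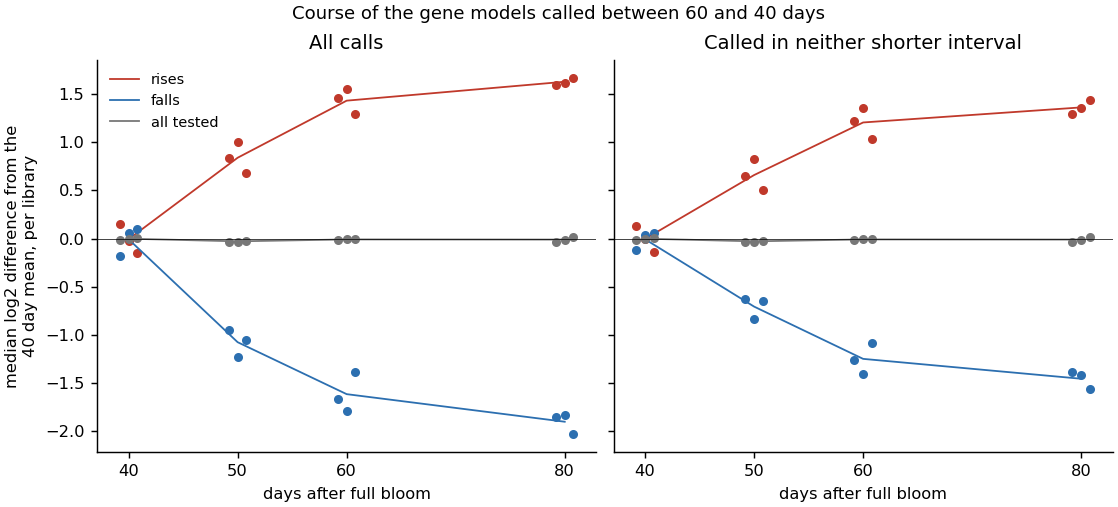
Median log2 difference from the 40-day mean (y axis) in each library by age (x axis, days after full bloom), for rises in red, falls in blue and all gene models tested in grey, with lines through the mean of the 3 libraries. Left, all calls; right, those called in neither shorter interval. In both panels replicate c of 60 days is the point nearest to 0 at that age, at 1.29 and -1.39 on the left.

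Some gene models left this course. By the mean, 50 days lay beyond 60 days in 10.2% of the rises and 9.23% of the falls. It lay beyond 40 days, on the other side, in 6.88% and 2.48%. In 17 rises (3.34%) and 25 falls (1.77%) every 50-day library lay outside the range of all 6 libraries of 60 and 40 days. Over all gene models tested this share was 9.94%. A call asks for ages that lie far apart, which leaves less room outside them, so this contrast is a description. In 12 of the 17 rises the 50-day libraries were above both ages, and in 22 of the 25 falls they were below both. VIT_01s0127g00050 was at 19.1, 13.5 and 12.9 FPKM at 60 days, against 5.39, 3.15 and 0.752 FPKM at 40 days (2.15 ± 0.395, limma adjusted p = 0.00120), and at 46.5 to 73.0 FPKM at 50 days. At 80 days it was at 53.2 to 94.0 FPKM, called as higher than at 60 days. VIT_19s0085g00790 was at 48.4, 50.1 and 83.3 FPKM at 60 days, against 15.05, 8.22 and 9.35 FPKM at 40 days (2.37 ± 0.290, limma adjusted p = 9.77e-05), while its 50-day libraries, at 3.38 to 7.40 FPKM, were under both. The step of VIT_19s0085g00790 from 40 to 50 days was too small for a call (-0.880, limma adjusted p = 0.0377). Its 80-day libraries were at 3.24 to 4.89 FPKM, called as lower than at 60 days.

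Among the falls of this kind, Grape_newGene_2315, a gene model that the table labels as new, had 12.1, 10.2 and 21.9 FPKM at 60 days, against 56.6, 57.4 and 52.2 FPKM at 40 days (-1.91 ± 0.400, limma adjusted p = 0.00260). Its 50-day libraries were the highest, at 61.0 to 73.9 FPKM, but the step from 40 to 50 days was not called (0.268, limma adjusted p = 0.638). VIT_00s2086g00010 had 25.1, 28.0 and 63.1 FPKM at 60 days, against 108, 81.3 and 194 FPKM at 40 days (-1.72 ± 0.3605, limma adjusted p = 0.00261), and 15.1 to 24.5 FPKM at 50 days. Its 50-day libraries were close to 2 of the 60-day libraries, and replicate c of 60 days stood apart from them. The step from 50 to 60 days was not called (0.757, limma adjusted p = 0.168). At 80 days it was at 13.5 to 14.5 FPKM, under each 50-day library and called as lower than at 60 days.

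Some changes of the 20 days were turned back by 80 days, past the threshold in the 80 against 60 day contrast, which shares the 60-day libraries. The largest such rise was that of VIT_19s0014g00440, at 21.003, 25.9 and 38.1 FPKM at 60 days, against 0.336, 0 and 0.125 FPKM at 40 days (4.64 ± 0.437, limma adjusted p = 2.23e-05), and at 0.726 to 2.98 FPKM at 80 days. VIT_02s0087g00920 was at 30.6, 49.1 and 17.9 FPKM at 60 days, against 2.01, 1.61 and 1.002 FPKM at 40 days (3.63 ± 0.461, limma adjusted p = 0.000123), and at 5.77 to 11.6 FPKM at 80 days. Both had been low at 50 days too, so that the 60-day libraries stand above those of every other age.

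VIT_02s0025g00500 was the largest fall that turned back. It had 3.31, 2.96 and 3.33 FPKM at 60 days, against 78.3, 129 and 84.0 FPKM at 40 days (-4.51 ± 0.313, limma adjusted p = 3.97e-06), and 11.6 to 14.9 FPKM at 80 days. VIT_08s0007g04240 had 2.57, 1.35 and 2.60 FPKM at 60 days, against 39.9, 43.8 and 36.3 FPKM at 40 days (-3.72 ± 0.636, limma adjusted p = 0.000787), with a wide 9.30 to 99.5 FPKM at 50 days. The return was partial in both, since each 80-day library stayed under each 40-day library.

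Called gene models also lay side by side in the order of the identifiers. Within an identifier block, 1 run of at least 4 neighbours rose and 6 runs of at least 4 fell, and runs of exactly 3 numbered 6 and 30. Neighbours were counted among the gene models tested, and no test of their number was made. The run of rises joins VIT_12s0057g00060 to VIT_12s0057g00190, in a block where 16 of 78 gene models tested rose, against 3.62% of all tested. It holds all 10 identifiers that the table lists in this stretch. Its median level was 89.7, 66.1 and 66.3 FPKM in the 60-day libraries, against 0.745, 1.08 and 1.61 FPKM in the 40-day libraries.

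The 10 members of the run rose by 2.93 to 6.16 on the log2 scale, with limma adjusted p-values of 0.000273 or less. Single values ran from 13.7 to 314 FPKM at 60 days, against 0 to 35.4 FPKM at 40 days. The member at its end, VIT_12s0057g00190, was the only one above 10 FPKM at 40 days, with 226, 144 and 314 FPKM at 60 days, against 27.5, 21.6 and 35.4 FPKM at 40 days. Most of the change came in the second interval: the median step was 0.70 from 40 to 50 days, with 4 members called, and 4.204 from 50 to 60 days, with all 10 called. VIT_12s0057g00180 was the exception, with a larger step from 40 to 50 days (2.10) than from 50 to 60 days (1.94). Neighbouring gene models can be copies of each other, and whether reads were shared among these 10 was not tested.

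**Figure D5:**
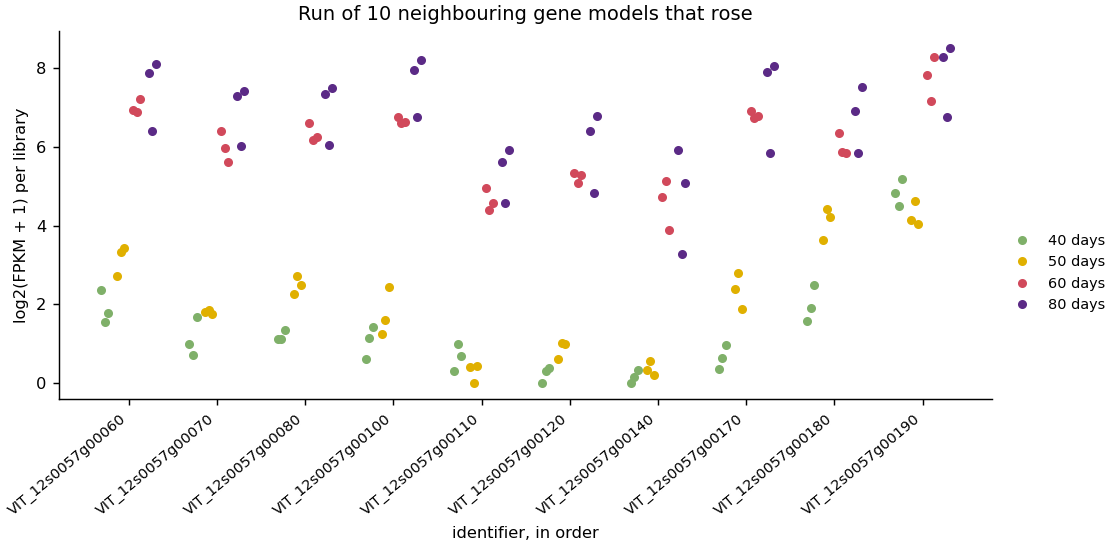
Levels as log2(FPKM + 1) (y axis) of the 10 neighbouring gene models in each of the 12 libraries (points, coloured by age), in identifier order (x axis). The 60-day libraries stand above the 40-day libraries in each member, and at 80 days replicate b is the lowest in every member.

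The runs of falls were shorter. Among the 6 with at least 4 members, the largest by median was VIT_06s0004g01380 to VIT_06s0004g01410, with 4 members and a median difference of -2.50. Some runs of 3 had larger medians, up to -3.13 in VIT_01s0011g02710 to VIT_01s0011g02740. The run from VIT_06s0004g01380 had a median level of 3.65, 2.48 and 4.69 FPKM in the 60-day libraries, against 12.5, 22.9 and 20.5 FPKM in the 40-day libraries. VIT_06s0004g05280 to VIT_06s0004g05430, in the same block, had a median difference of -2.37 over 4 members among 9 listed identifiers, with medians of 2.21 to 2.42 FPKM at 60 days, against 16.0 to 31.6 FPKM at 40 days. The run from VIT_06s0004g01380 was already at 3.17 to 5.90 FPKM at 50 days, which overlaps its 60-day range.

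By the first 2 digits of the identifier, between 2.25% and 5.01% of the gene models tested rose and between 8.04% and 13.4% fell. Falls thus outnumbered rises under every prefix. Over all gene models tested, 3.62% rose and 10.0% fell. The highest share of falls was under prefix 02 and the highest share of rises under prefix 16. Gene models labelled as new were called in 35 of 293 cases, 14 rises and 21 falls. This is 11.9%, close to the 13.6% of all gene models tested.

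Between 13545 and 13749 gene models reached 1 FPKM in the 60-day libraries, and between 13791 and 14326 in the 40-day libraries. Taken across gene models, which do not replicate each other, libraries correlated at 0.981 to 0.985 within 60 days, at 0.979 to 0.980 within 40 days and at 0.875 to 0.935 between these ages (Pearson's r of log2 values). Replicate c of 60 days stood nearest to the 40-day libraries, at 0.914 to 0.935. Its median difference from the 40-day mean was 1.29 over the rises and -1.39 over the falls, against 1.46 and 1.55, and -1.67 and -1.79, in replicates a and b. Without it, 507 gene models rose and 1551 fell.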

How the data were processed

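Polyadenylated RNA of berries was made into strand-specific libraries, per the labels' protocols, which also say that 3 biological replicates were extracted apart and their RNA combined. Whether libraries a, b and c come from separate plants is therefore unclear, and p-values measure only the spread between libraries, which may be technical. The authors deposited FPKM values for 22580 identifiers (21791 of the VIT_ form, 789 labelled as new). The submitters' processing notes name Trimmomatic 0.36, FastQC, TopHat2, Cufflinks and edgeR without roles. Genome build and annotation: not given in the sources used here. All 12 columns were matched to samples by library code. None of the identifiers matched the 29591 genes of the RefSeq table (assembly ASM3070453v1).

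Depth is unknown, and no count test was run. In 15 pairs of the 60 and 40 day libraries, ratios of values under 0.5 FPKM were searched for steps of single reads. The fullest bin of 0.005 log2 held 0.466% to 2.43% of the gene models of a pair. No share for ratios without steps was computed, so the search does not decide whether there are steps. Values were taken as log2(FPKM + 1), with at least 1 FPKM in 3 of the 6 libraries of 60 and 40 days. In limma 3.58.1 (R 4.3.3, trended prior variance) the model had 4 age means over the 12 libraries, with Benjamini-Hochberg adjustment over 14058 gene models and a minimum log2 difference of 1. The fit was checked only on simulated data drawn from its own spreads. The planted changes were above the minimum difference and lay in gene models that were not low, so low gene models were not checked. Differences on this scale understate changes of low gene models.

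Named gene models were the 2 largest rises and 2 largest falls per group described, with no overlap between the ages and a mean of at least 10 FPKM at the higher age. Those called in both shorter intervals were not described separately. The comparison, the groups and this rule were chosen with earlier results of these data known. Gene lists by product name could not be used. Alternatives covered the pseudocount, filters, scaling, the minimum difference, a block for the replicate letter, the libraries fitted, the variance trend and leaving out each library.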

Additional observations from a re-analysis of the deposited data

How the results depend on the processing

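Over all settings tried, no gene model called between 60 and 40 days was called in the opposite direction. Dropping the minimum difference, which loosens the rule, gave 6842 calls (3244 rises, 3598 falls), of which 2011 (1068 rises, 943 falls) were called in neither shorter interval. Quantile normalization gave 360 rises called in neither interval, in place of 226, and 739 rises and 1239 falls in all; the cause was not tested. The other counts stayed within 1.5 times their value. Leaving out each library of 60 and 40 days in turn gave 1595 to 2058 calls (409 to 584 rises, 1147 to 1551 falls), and 80.0% to 94.4% of the calls were kept; the filter then asks for 3 of 5 libraries. Calls in neither interval numbered 633 to 817 when each library of 40, 50 or 60 days was left out. Of 416 values for the 25 gene models picked by the naming rule, 408 stayed past the threshold, 8 did not and 0 turned direction; they had been picked for their size. The 8 belong to VIT_12s0055g00800 (7, among them no filter and the replicate block) and VIT_00s2342g00020. No value exists for VIT_12s0057g00170, VIT_16s0039g00270 and VIT_19s0014g00440 when a 60-day library was left out. All their 40-day libraries were under 1 FPKM, so the filter then dropped them, and their dependence on single 60-day libraries was not tested. With the replicate letter as a block, 1923 gene models were called. Deviations of same-letter libraries of 60 and 40 days correlated at 0.008, -0.006 and 0.180. Those of different letters correlated at -0.164 to 0.156. Whether the letters pair libraries was not tested. The share of the change reached by 50 days was 60.6% for rises and 65.6% for falls (medians over age means), but 62.6% and 61.7% with a pseudocount of 0.1 and 64.2% and 61.3% without the 10 most abundant gene models, both tried after seeing the data, so the order of rises and falls depended on the setting. Depth is unknown, so counting error at low levels cannot be separated from other spread. Tests of gene lists were not run.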
